A study of Caenorhabditis elegans with 2 samples.

Results

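Peaks of the transcription cofactor SMA-9 whose summit lay in or within 200 bp of a gene of the Ensembl biotype ncRNA were collected from the peak list of the pooled reads, with piRNA genes kept out of that biotype. They numbered 1251 of 30000 peaks, or 4.17%, while the sequence within 200 bp of the 7764 ncRNA genes makes up 3.50% of the genome. The pooled list is labelled as peaks and background, used as input for IDR (irreproducible discovery rate). All its entries are called peaks here, though not every one need be binding. The peaks came from chromatin immunoprecipitation and sequencing (ChIP-seq) of whole L2 larvae of Caenorhabditis elegans of mixed sex, labelled with sma-9 as the antibody target. All libraries came from 1 strain, OP130 (unc-119(ed3) III; wgIs130), which carries an integrated transgene of eGFP-tagged sma-9. The 1 group had 2 biological replicates, each with its own list of 30000 peaks, and a thresholded list held exactly the strongest peaks of the pooled list, 31 of them at ncRNA-class genes and 94 elsewhere. Signal was given by the authors per peak, on a scale they do not state, with medians over whole lists of 14.1 (pooled), 9.50 (replicate 1) and 6.34 (replicate 2). The depth of the libraries is unknown, a control library was not analysed here, and sets of peaks within these libraries are what is compared. Intervals given below are exact 95% binomial (Clopper-Pearson) intervals that cover counting error over peaks only, and no test between samples was possible.

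SMA-9, a zinc finger protein of the Schnurri family known from Drosophila, is a partner of SMADs in the Sma/Mab pathway, the worm's BMP-like signal for body size. In C. elegans the ncRNA biotype gathers short transcripts, mostly without a named function, that are not tRNA, rRNA, snRNA, snoRNA, miRNA or piRNA genes. Many of them lie between coding genes, inside introns of a host gene, or opposite one another on both strands. ChIP-seq does not read strand, and in whole larvae the cells that carry a peak are not resolved.

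The windows of 200 bp around the summits of the 6 strongest ncRNA-class peaks are shown first, because they let the position of the summit in and beside the ncRNA gene be read directly. They are RefSeq sequence of the ce11 (WBcel235) build, plus strand, 5′ to 3′, with the bases of an annotated ncRNA gene in capitals and the summit at the middle. The windows are V:6246615-6246814 for K08B12.6, III:4649382-4649581 for T23F11.10, IV:6881335-6881534 for T05A12.7, IV:14033439-14033638 for Y37A1B.330, X:5841189-5841388 for W06B11.7 and II:5543463-5543662 for C17C3.23. Each is named after the ncRNA gene nearest its summit.
K08B12.6: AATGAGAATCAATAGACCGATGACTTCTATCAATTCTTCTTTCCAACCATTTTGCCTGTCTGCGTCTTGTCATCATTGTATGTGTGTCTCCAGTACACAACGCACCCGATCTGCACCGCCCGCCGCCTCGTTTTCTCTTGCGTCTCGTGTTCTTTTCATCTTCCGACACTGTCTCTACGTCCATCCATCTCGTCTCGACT
T23F11.10: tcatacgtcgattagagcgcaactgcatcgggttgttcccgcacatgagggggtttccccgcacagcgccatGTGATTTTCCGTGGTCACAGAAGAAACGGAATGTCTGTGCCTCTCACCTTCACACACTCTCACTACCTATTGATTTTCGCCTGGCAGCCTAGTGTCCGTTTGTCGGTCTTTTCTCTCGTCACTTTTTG
T05A12.7: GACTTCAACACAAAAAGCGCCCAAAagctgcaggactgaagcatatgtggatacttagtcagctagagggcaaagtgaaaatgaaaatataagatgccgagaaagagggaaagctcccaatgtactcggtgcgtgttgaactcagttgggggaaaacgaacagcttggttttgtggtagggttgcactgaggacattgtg
Y37A1B.330: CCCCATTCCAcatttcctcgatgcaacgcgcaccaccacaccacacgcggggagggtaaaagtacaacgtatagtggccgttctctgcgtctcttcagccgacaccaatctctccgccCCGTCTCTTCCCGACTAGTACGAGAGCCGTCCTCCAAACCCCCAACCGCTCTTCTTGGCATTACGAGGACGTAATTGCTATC
W06B11.7: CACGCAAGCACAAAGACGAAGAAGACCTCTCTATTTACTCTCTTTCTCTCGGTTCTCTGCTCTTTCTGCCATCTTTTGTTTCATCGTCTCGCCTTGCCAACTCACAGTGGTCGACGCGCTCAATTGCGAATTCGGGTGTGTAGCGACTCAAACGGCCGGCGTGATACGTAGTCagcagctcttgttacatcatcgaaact
C17C3.23: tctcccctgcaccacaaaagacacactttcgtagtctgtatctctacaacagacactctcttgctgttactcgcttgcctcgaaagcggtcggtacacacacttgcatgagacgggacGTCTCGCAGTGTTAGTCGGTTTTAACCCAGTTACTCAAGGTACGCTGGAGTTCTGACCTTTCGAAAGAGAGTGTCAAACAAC
All 200 bases around the K08B12.6 summit lay in ncRNA genes, against 25 bases at T05A12.7, where the gene ended short of the summit. The motif GTCT, the core of the SMAD-binding element, was found on either strand at 7 places in the K08B12.6 window, at 5 in that of C17C3.23, at 3 in that of W06B11.7 and at 2 in each of those of T23F11.10 and Y37A1B.330, but not in that of T05A12.7. GAGAGA, searched on both strands and read here as TCTCTC, was found once each in the windows of T23F11.10, Y37A1B.330 and W06B11.7. These matches describe the letters of the windows and are not sites.

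The ncRNA-class peaks were found among the strongest peaks far more often than other peaks. Most of them were of ordinary strength for a list that also holds background. In the thresholded list there were 31 of the 1251 ncRNA-class peaks, or 2.48% (1.69 to 3.50), against 94 of 28749 other peaks, or 0.327%, where the list takes 0.417% of all pooled peaks. The ratio of these shares was 7.58 (5.17 to 10.7). The ratio was 4.12 among the 500 strongest peaks, which held 76 ncRNA-class peaks or 6.08% of them, against 1.47% of other peaks and a background of 1.67%. It was 2.61 (2.14 to 3.14) among the 1000 strongest, with 102 ncRNA-class peaks or 8.15% against 3.12% of other peaks and a background of 3.33%. Among the 5000 strongest it was 1.31, with 270 ncRNA-class peaks or 21.6% against 16.4% and a background of 16.7%.

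Read by rank, ncRNA-class peaks made up 24.8% of the thresholded list, 45 of the 375 peaks from there to rank 500 and 26 of the next 500. Beyond that they were 4.20% of peaks to rank 5000, 4.52% of those from there to rank 15000 and 3.53% of the weakest 15000. Their share of a rank band was thus highest among the strongest 500 peaks, which held 76 of the 1251. The median signal was 14.8 in ncRNA-class peaks and 14.1 in other peaks, and the quartiles were 12.6 and 17.9 against 12.4 and 16.9. At the 99th percentile the signals were 45.5 and 27.9. The median ncRNA-class peak stood at the 43.2 percentile of the pooled ranks (40.7 to 45.7), where 0 is the strongest, and 722 ncRNA-class peaks lay in the stronger 15000. Ranked by the deposited score instead, from the highest, the median stood at 53.8 (51.4 to 56.2), on the side of the lower scores. Over all pooled peaks the score ran opposite to the signal (Spearman's rho -0.92), so a lower score does not mean a weaker signal.

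Strength also varied with how close the summit was to the ncRNA gene. Of the 399 peaks with the summit inside an ncRNA gene, 20 were in the thresholded list, or 5.01% (3.09 to 7.64). The share was 2.42% of 207 peaks at 1 to 50 bp, 1.72% of 233 peaks at 51 to 100 bp and 0.485% (0.0588 to 1.74) of 412 peaks from there to 200 bp. Outside the limit it was 0.535% of 374 peaks up to 300 bp and 0.275% of 17820 peaks beyond 5000 bp. The outermost ncRNA-class peaks thus had a thresholded share whose interval spans those of the peaks outside the limit. The share among the 1000 strongest was 12.5% inside a gene, 6.28%, 6.44% and 5.83% in the next bands out to 200 bp, and 3.06% beyond 5000 bp. Mean GC of the windows was also lower at each step out to 200 bp, at 41.4% inside a gene and 39.5%, 36.7% and 35.6% in the next bands. Further out it did not keep falling, at 34.0% from 501 to 1000 bp and 34.6% beyond 5000 bp. With only summits inside a gene counted as ncRNA-class, the ratio of thresholded shares was 14.1 (8.71 to 21.5), and 4.005 (2.47 to 6.10) with the other peaks weighted to the same GC.

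**Figure D1:**
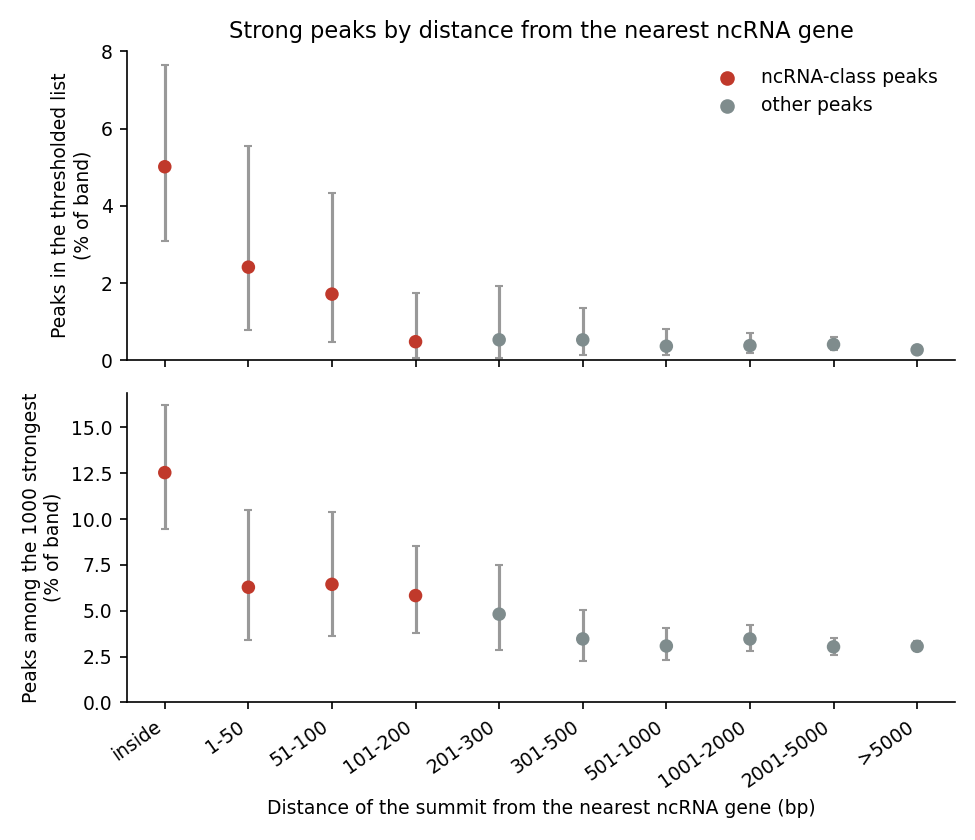
Share of pooled peaks in the thresholded list (upper panel) and among the 1000 strongest (lower panel), in % of the peaks of each band, by distance in bp of the summit from the nearest ncRNA gene. Points are shares, bars exact 95% binomial intervals, ncRNA-class peaks in red and other peaks in grey; the thresholded share is 5.01% inside a gene and 0.485% in the last ncRNA-class band.

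Among thresholded peaks, 3 ncRNA-class peaks lay nearest the limit: ZK470.11 at 178 bp, then T19E7.26, then F42D1.13 at 96 bp. Just outside it were the peaks nearest T14G8.5 at 229 bp (rank 13, signal 69.6), C49F8.10 at 287 bp (rank 41, signal 49.6) and F16A11.13 at 312 bp (rank 78, signal 40.9). The next ncRNA-class peaks inwards were F28C1.14 at 83 bp and T05A12.7 at 76 bp, so few of the 31 were chosen by a narrow margin.

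The strongest peaks also had their summits inside the annotated gene more often than the weaker ones. Of the 31 thresholded ncRNA-class peaks, 20 or 64.5% (45.4 to 80.8) had the summit inside the gene, 4 upstream of its 5′ end and 7 downstream of its 3′ end. In the rest of the 1000 strongest the summit was inside in 30 of 71, or 42.3% (30.6 to 54.6), and beyond rank 1000 in 349 of 1149, or 30.4% (27.7 to 33.1). Genes take up 31.2% of all bases within the 200 bp limit, a share close to that of the peaks beyond rank 1000. In each replicate's own list the summit was inside the gene in 20 of 29 ncRNA-class peaks at the top of replicate 1 (as many ranks as the thresholded list holds) and in 13 of 22 in replicate 2, against 31.1% and 31.2% of all ncRNA-class peaks of those lists.

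**Figure D2:**
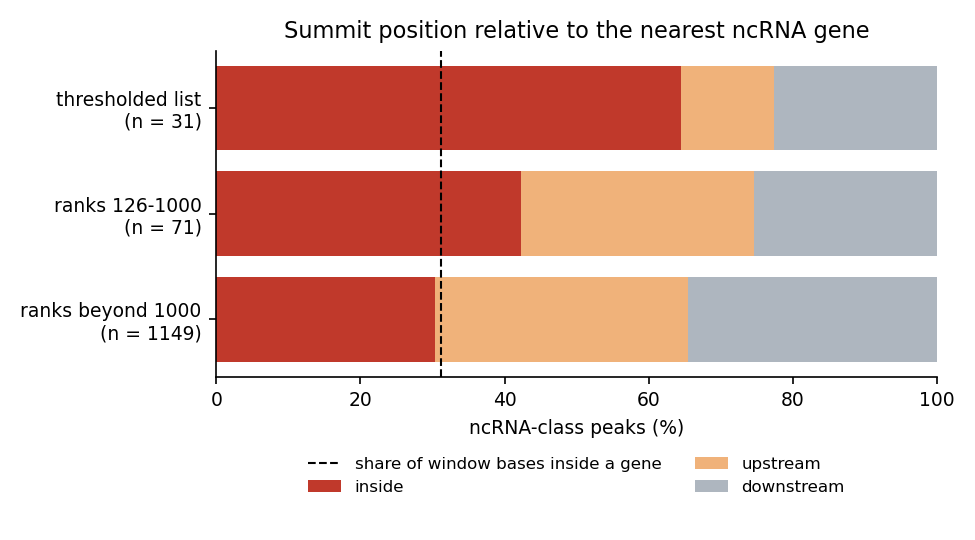
Position of ncRNA-class summits relative to the nearest ncRNA gene, in % of the peaks of each rank class, as inside, upstream or downstream. The dashed line marks the 31.2% of window bases (here bases within 200 bp of an ncRNA gene) that lie inside a gene. Of the 31 thresholded peaks 64.5% were inside, and of the 1149 peaks beyond rank 1000 30.4%.

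Several ncRNA genes often met at one peak. More than 1 ncRNA gene lay within 200 bp of 13 of the 31 thresholded peaks (41.9%) and of 308 of all 1251 (24.6%), with at most 5 at a peak. Genes of this biotype on both strands lay within 200 bp of the summit at 12 of 31 thresholded peaks (38.7%). The counts were 20 of 71 in the rest of the 1000 strongest (28.2%) and 233 of 1149 beyond (20.3%). Which of these genes a peak belongs to cannot be told from these data, and each peak is called here by the nearest gene. The genes were short, with a median length of 149 bp at thresholded peaks and 145 bp at all ncRNA-class peaks, against 140 bp over all 7764 ncRNA genes. Of those genes, 1505 (19.4%) had an ncRNA-class peak and 48 a thresholded one. No thresholded ncRNA-class peak lay within 10 kb of another.

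The strongest ncRNA-class peak, at K08B12.6 (WBGene00195983, V:6246523-6246906), was rank 6 of the pooled list with a signal of 84.7. It had a signal of 56.9 and rank 6 in replicate 1 and a signal of 31.4 and rank 7 in replicate 2, so both libraries placed it near the top. The summit lay inside K08B12.6 and within 200 bp of the ncRNA gene K08B12.8 on the other strand. It was 216 bp upstream of the start of dmd-7, a gene of the DM domain transcription factor family. T23F11.10 (WBGene00202487, III:4649290-4649673) followed at rank 16 with 65.2, and it had 39.2 in replicate 1 and 22.4 in replicate 2. Its summit was inside the gene, beside the ncRNA gene T23F11.7, and 1012 bp upstream of ppm-2, which encodes a protein phosphatase. T05A12.7 (WBGene00198985, IV:6881243-6881626) reached 64.0 at rank 17, with 31.2 in replicate 1 and 25.5 in replicate 2. This gene sits within an intron of tre-2, which encodes a trehalase, on the opposite strand, and the summit was 76 bp beyond its 3′ end.

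Y37A1B.330 (WBGene00195705, IV:14033347-14033730) had 58.8 at rank 24, with 39.03 in replicate 1 and 18.7 in replicate 2. It was 1 of 4 ncRNA genes within 200 bp of the summit. The nearest coding start, that of Y37A1B.7, was 10241 bp away, so no coding start lay within 10 kb. W06B11.7 (WBGene00196810, X:5841097-5841480) had 57.2 at rank 27, with 37.0 in replicate 1 and 18.4 in replicate 2. Its summit was inside the gene and 303 bp upstream of puf-9, which encodes an RNA-binding protein of the Pumilio family. C17C3.23 (WBGene00200812, II:5543371-5543754) had 52.4 at rank 33, with 25.9 in replicate 1 and 21.2 in replicate 2. Within 200 bp of the summit there was also sls-2.2, a gene of the SL2 spliced leader RNA that trans-splicing adds to messages from operons. Genes of that kind are near copies of one another. In the 200 bp window printed above, 69.8% of the 32-base words occur once in the genome.

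T19E7.26 (WBGene00199642, IV:5657011-5657394) had 51.1 at rank 36, with 29.8 in replicate 1 and 20.6 in replicate 2, in an intron of skn-1, the Nrf-like regulator of stress responses. F48C1.12 (WBGene00196397, chromosome I), in an intron of let-526, the gene of a SWI/SNF chromatin remodelling subunit, had 49.2 at rank 42. The replicates placed it apart, at rank 27 with 38.96 in replicate 1 and rank 436 with 12.8 in replicate 2. T04C10.8 (WBGene00197461, X:14818780-14819163) had 48.3 at rank 44, with 34.1 in replicate 1 and 14.1 in replicate 2, and lay 458 bp upstream of epn-1, the gene of the endocytic adaptor epsin. C17G10.11 (WBGene00199471, II:5605396-5605779) had 48.1 at rank 45, and rested on replicate 1, where it was rank 32 with 36.8, against rank 22123 with 5.41 in replicate 2. R03E9.10 (WBGene00201660, X:6743792-6744175) had 47.5 at rank 49, with 28.4 in replicate 1 and 13.5 in replicate 2, downstream of mdl-1, the gene of a partner protein of the Mad family. F07A11.10 (WBGene00198431, II:11619904-11620287) had 46.7 at rank 52, and here replicate 2 was the higher, with 28.5 at rank 10 against 19.1 at rank 424 in replicate 1. The snoRNA gene F07A11.15 also lay within 200 bp of this summit. The summit lay in din-1, the gene of a corepressor of the nuclear receptor DAF-12, 18 bp upstream of a coding start of that gene.

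The other 19 thresholded ncRNA-class peaks ran from F22E12.10 at rank 54 (signal 45.7) to C16C2.7 at rank 122 (signal 34.8). Among them F22E12.10 lay 1762 bp upstream of egl-9, the prolyl hydroxylase gene that restrains HIF-1, and F28C1.14 lay 2637 bp upstream of egl-10, which encodes a regulator of G protein signalling. C16C2.7 lay in an intron of ocrl-1, an inositol phosphatase gene, and 421 bp upstream of eat-16, another regulator of G protein signalling. F42D1.13 lay 461 bp upstream of tatn-1, the tyrosine aminotransferase gene. T14F9.14 lay in an intron of peb-1, which encodes a DNA-binding protein of the pharynx. C30E1.9 was unlike the others in length, at 14770 bp, and its summit was 15 bp inside the 5′ end. The other peaks of this kind were at H37A05.6, W01C8.13, D2023.12, T27D12.8, R12E2.18, T28B11.14, F57G12.12, F13G11.145, ZK470.11, W06H8.13, ZK1290.22, ZK829.13 and Y15E3A.8.

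Over all 31, the median signal was 45.1, against 43.5 in the other 94 thresholded peaks, and the lowest was 34.8 where the list ended at 34.6. The next ncRNA-class peaks below the list were at F26F4.14 (rank 129, signal 34.3), W06H8.16 (rank 135, signal 33.9) and F33D11.13 (rank 143, signal 33.0), so their signals continued those of the last members of the list without a gap.

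**Figure D3:**
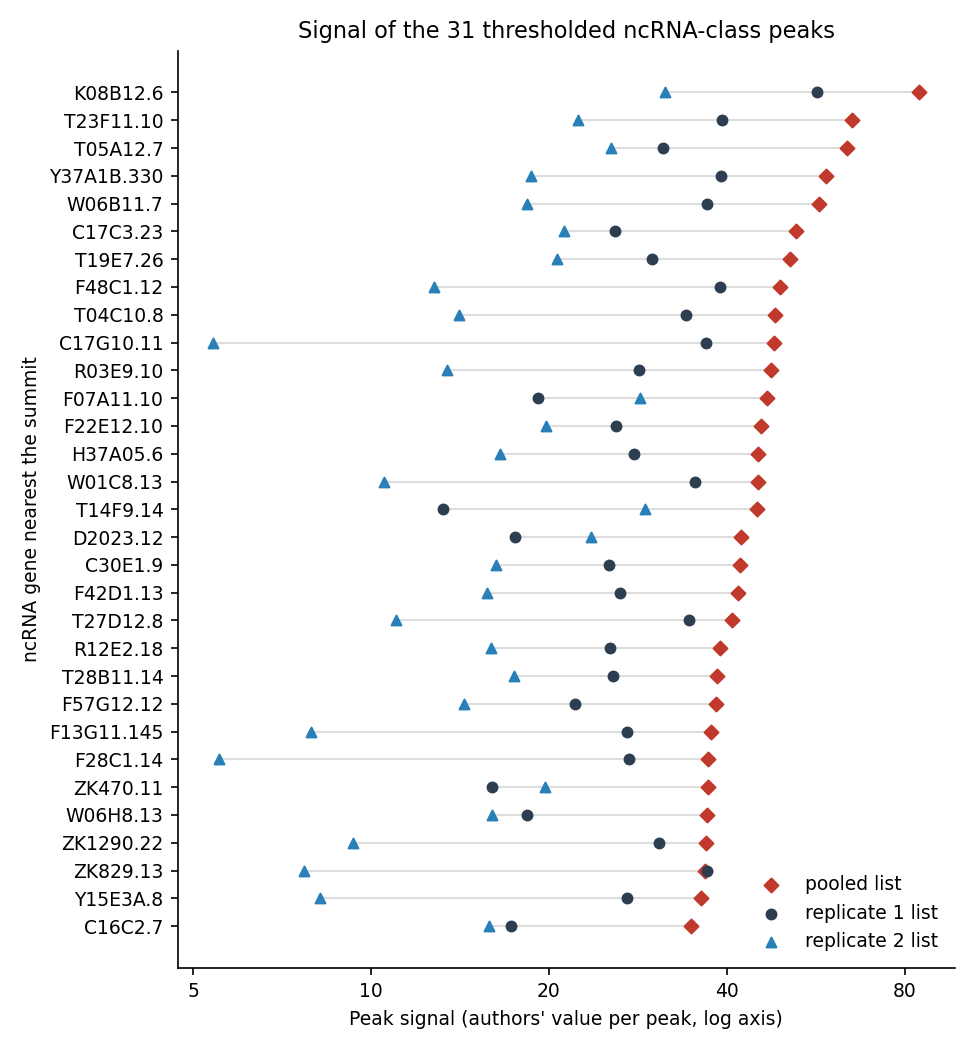
Peak signal (the authors' value, log axis) of the 31 thresholded ncRNA-class peaks, named by nearest ncRNA gene and ordered by pooled signal, in the pooled list (diamonds), replicate 1 (circles) and replicate 2 (triangles). Pooled signals run from 84.7 to 34.8, while C17G10.11 and F28C1.14 have replicate 2 signals of 5.41 and 5.53.

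Both replicate lists held a peak overlapping each thresholded ncRNA-class peak, in some cases one of low rank. The thresholded list is labelled as chosen by IDR and comes from the same reads. Its overlap with the replicate lists is therefore not independent replication. A peak of each replicate list overlapped all 31 by at least 1 bp, against 94 of the other 94 thresholded peaks in replicate 1 and 89 in replicate 2. Such overlap was common over the whole pooled list. Peaks of replicate 1 overlapped 71.6% of all 1251 ncRNA-class peaks and 69.4% of the 28749 others, and those of replicate 2 62.8% and 56.4%. Among the 31, the overlapping peak ranked as low as 3914 in replicate 1 and 22123 in replicate 2. Of the 31, 24 were overlapped by a peak of replicate 1 that ranked within the size of the thresholded list and 19 by such a peak of replicate 2, against 66 and 43 of the other 94. The 1000 strongest of both replicates overlapped 21 of the 31, or 67.7% (48.6 to 83.3), against 61 of 94 or 64.9% of the other thresholded peaks and a background of 65.6% over the whole list. Peaks within that stricter limit in both replicates overlapped 13 of the 31, or 41.9% (24.5 to 60.9), against 29.8% of the other 94 and a background of 32.8%. Both intervals span the background. Where summits within 100 bp were required in place of overlap, the share for the 1000 strongest of both was 51.6% (33.06 to 69.85). By overlap, of the 10 that missed the 1000 strongest in 1 library, 8 missed them in replicate 2 and 2 in replicate 1. Among the other 94 the counts were 30 and 3.

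On the log2 scale, signal in replicate 1 over that in replicate 2 had a median of 0.75 (SD 0.89, n = 31 peaks) in thresholded ncRNA-class peaks and 1.07 (SD 0.76, n = 89 peaks) in the others, where the medians of the whole lists differ by 0.58. It was above 0 in 27 of the 31, against 81 of the 89 other thresholded peaks. Over all other pooled peaks matched in both replicates it was above 0 in 8374 of 9626. The largest ratios were 2.77 at C17G10.11 and 2.30 at F28C1.14, which was rank 83 with 27.3 in replicate 1 and rank 21152 with 5.53 in replicate 2. The smallest were -1.13 at T14F9.14, with 13.2 at rank 3914 in replicate 1 and 29.1 at rank 9 in replicate 2, and -0.57 at F07A11.10. The lists of the replicates were also read on their own, and the difference between them was not tested. The list of replicate 2 held 22 of 1345 ncRNA-class peaks within the same number of ranks, or 1.64% against 0.359% of other peaks and a background of 0.417%, a ratio of 4.55 (2.86 to 6.86). The list of replicate 1 held 29 of 1187, or 2.44% against 0.333%, a ratio of 7.33 (4.93 to 10.5), so the intervals overlap. Weighted by GC the ratios were 2.955 (1.86 to 4.45) in replicate 2 and 3.46 (2.33 to 4.94) in replicate 1. Among the 1000 strongest the ratio was 1.78 (1.41 to 2.21) in replicate 2, with 77 ncRNA-class peaks, and 2.28 (1.84 to 2.80) in replicate 1, with 86.

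**Figure D4:**
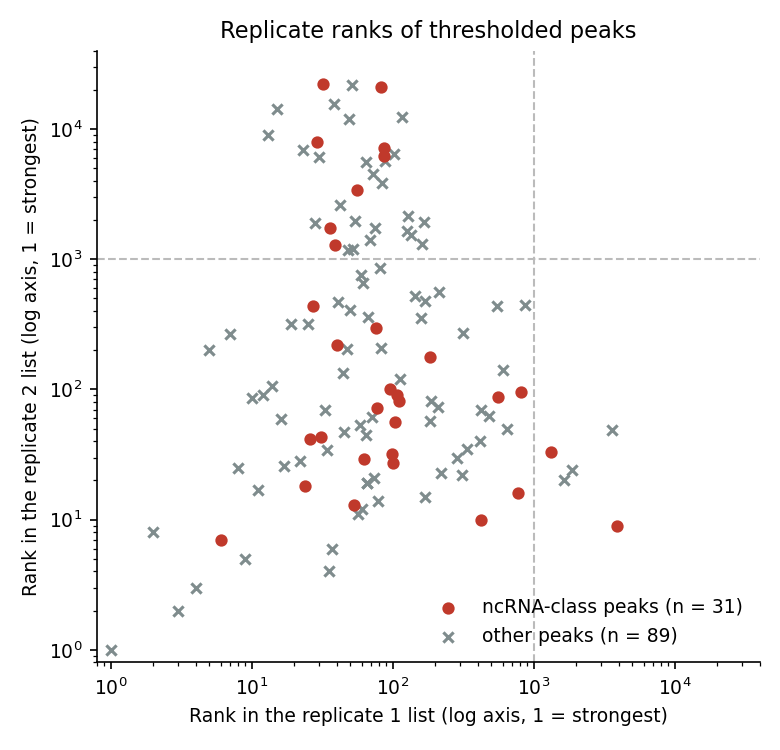
Rank of thresholded peaks in the replicate 1 list (x) and the replicate 2 list (y), both on log axes with 1 as the strongest, for 31 ncRNA-class peaks (red) and 89 other peaks found in both lists (grey crosses). Dashed lines mark rank 1000, and 21 of the 31 ncRNA-class peaks lie within both.

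Base composition moved with both the class and the strength of a peak. The 200 bp windows of thresholded ncRNA-class peaks had a mean GC of 49.0 ± 5.19% (SD, n = 31 peaks, 39.5 to 60), against 45.3 ± 7.68% in the other 94. Over the whole pooled list the means were 38.3 ± 7.45% in ncRNA-class peaks and 34.6 ± 6.76% in other peaks. Below 35% GC thresholded peaks were rare in both classes, at 0 of 420 ncRNA-class peaks (exact interval up to 0.8745%) and 9 of 15406 other peaks (0.0584%). At 40 to 45% GC, 5 of 270 ncRNA-class peaks were thresholded, or 1.85% (0.604 to 4.27), against 0.448% of 4021 other peaks. At 45 to 50% GC it was 13 of 139, or 9.35% (5.07 to 15.5), against 1.56% of 1598 others. At 50 to 55% it was 6 of 67, or 8.96%, against 3.85% of 441 others, and at 55 to 60% it was 5 of 16, or 31.2%, against 7.84% of 102 others. Within each of these 4 strata the ncRNA-class share was the higher.

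When the other peaks were weighted to the GC strata of the ncRNA-class peaks, their thresholded share was 0.724% in place of 0.327%, and the ratio was 3.42 (2.33 to 4.83) in place of 7.58. For the 1000 strongest the ratio so weighted was 2.15 (1.77 to 2.59) in place of 2.61. Genomic position moved too, and thresholded peaks were rare in coding exons in either class. Of ncRNA-class peaks, 7.51% had the summit in a coding exon, 31.9% in a coding-gene intron and 57.1% outside coding genes, against 23.2%, 33.0% and 37.9% of other peaks. Of the thresholded ones, none of 31 were in an exon of a coding gene, 11 were in introns and 20 outside, against 3 in coding exons, 1 in a UTR exon, 36 in introns and 54 outside among the other 94. With GC and these classes weighted together, the ratio was 1.89 (1.29 to 2.67) for the thresholded list and 1.66 (1.36 to 2.00) for the 1000 strongest. With coding exons left out of both sets, the GC-weighted ratio for the thresholded list was 2.08 (1.42 to 2.94). The ncRNA-class share was thus above that of other peaks under each weighting, by less than without it.

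**Figure D5:**
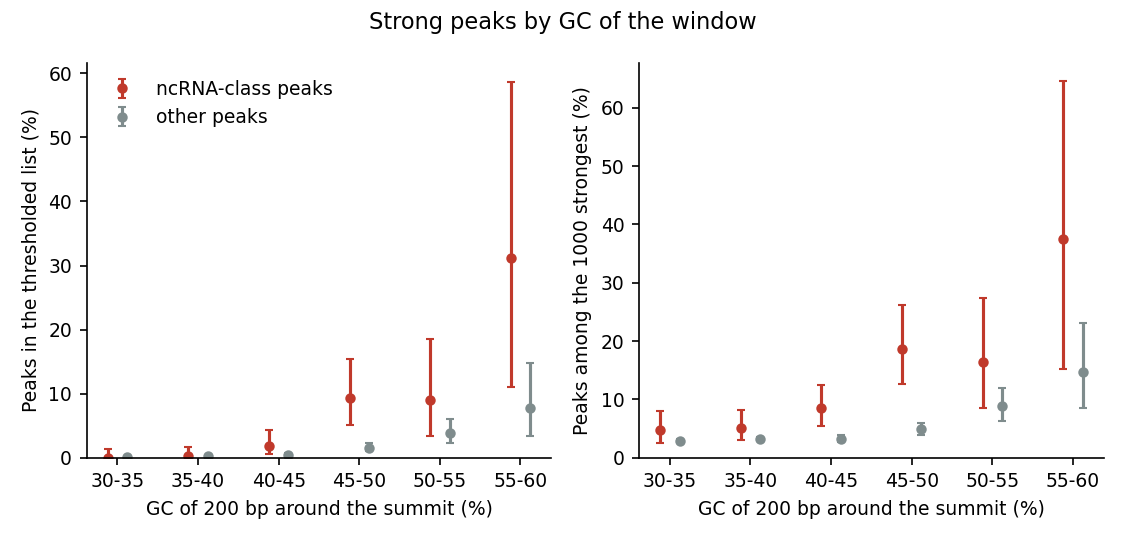
Share of ncRNA-class peaks (red) and other peaks (grey) in the thresholded list (left) and among the 1000 strongest (right), in % of the peaks of each stratum of GC of the 200 bp window; bars are exact 95% binomial intervals. At 45 to 50% GC the thresholded shares are 9.35% and 1.56%, and the stratum of 55 to 60% holds 16 ncRNA-class peaks.

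The position of coding genes gave a second view of the same peaks. The nearest coding start was a median of 1277 bp from thresholded ncRNA-class summits and 1834 bp from other thresholded summits, while over all peaks the medians were 1433 and 1242 bp. It lay within 1 kb of 13 of the 31, or 41.9%, against 32 of 94. A summit up to 500 bp upstream of a coding start was found at 11 of the 31, or 35.5% (19.2 to 54.6), against 19 of 94 or 20.2%, a share inside that interval. Over all peaks it was found at 17.3% of ncRNA-class peaks and 12.2% of others. With no coding start within 1 kb, 18 of 771 ncRNA-class peaks were thresholded, or 2.33%, against 0.376% of 16500 others, a ratio of 6.21 (3.70 to 9.75). With one within 1 kb it was 13 of 480, or 2.71%, against 0.261% of 12249, a ratio of 10.4 (5.55 to 17.6). Away from coding starts the GC-weighted ratio was 3.14 (1.87 to 4.92), and in the list of replicate 2 the unweighted ratio for the 1000 strongest was 1.38, with an interval of 0.983 to 1.88 that includes 1.

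A coding gene held the summit of 536 of the 1251 ncRNA-class peaks, in 451 host genes, of which 386 had a single such peak. ppfr-1, which encodes a regulatory subunit of protein phosphatase 4, had the most, with 6 peaks over 25.9 kb on chromosome I, the best at rank 348 with a signal of 27.8. peb-1 had 5 over 7.94 kb (X:2211051-2218988) and T28B11.1 had 5 over 20.3 kb (V:10712160-10732422), each with 1 in the thresholded list, at ranks 57 and 90. Where the strand of the ncRNA gene was single, it was that of the host in 118 of 456 peaks, or 25.9%, and in 2 of the 8 thresholded ones. Over all ncRNA genes inside a coding gene the share was 31.7%, so most of these genes run against their hosts whether or not they carry a peak.

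Chromosome X held 10 of the 31 thresholded ncRNA-class peaks (32.3%), against 28.7% of the other thresholded peaks, and 36.7% of all ncRNA-class peaks against 21.7% of other peaks. The annotation places 32.5% of ncRNA genes on X, which is 17.7% of the genome by length. An ncRNA-class peak was found at 22.5% of the ncRNA genes of X, the highest share of any chromosome, and at 13.2% of those of chromosome III, the lowest. With X left out, the ratio of thresholded shares was 8.90 (5.54 to 13.5).

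Among 12 short motifs searched on both strands of the 200 bp windows, GAGAGA was the one in which ncRNA-class peaks as a whole stood apart by the most percentage points. It was found in 262 of 1251, or 20.9% (18.7 to 23.3), against 9.95% of other peaks, 10.4% of all peaks and 12.3% in other peaks weighted to the same GC. In thresholded ncRNA-class peaks it was found in 14 of 31, or 45.2% (27.3 to 64.0), against 58.5% of the other thresholded peaks and 18.4% by GC. Strong peaks of both classes thus held it more often than the list as a whole. CACGTG, the E-box palindrome, was found in 5 of the 31, or 16.1% (5.45 to 33.7). It was in 20.2% of the other thresholded peaks and 3.40% of all peaks. By GC the share was 7.07%, inside that interval. At least 1 of these motifs was found in 17 of the 31 and both in 2, at F42D1.13 and ZK829.13. GTCT was found in 28 of the 31, or 90.3%, against 88.3% of the other thresholded peaks, 60.7% of all peaks and 72.1% by GC, so it did not set the ncRNA class apart within the list.

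Other words were counted in fewer windows. GGCGCC was found in 6 of the 31, or 19.4% (7.45 to 37.5), against 8.51% of the other thresholded peaks, 1.27% of all peaks and 5.21% by GC. GGGCGG was also found in 6 of the 31, against 12.8% of the others, 2.83% of all peaks and 8.14% by GC. The shares of GGGCGG in the others and by GC lie inside that interval. AGGTCA, a word known from nuclear receptor sites, was found in 5 of the 31, or 16.1% (5.45 to 33.7). It was in 2 of the 94 others or 2.13% and in 4.84% of all peaks, on counts this small. By GC the share was 6.25%, inside the interval. The 5 ncRNA-class peaks with AGGTCA were C17C3.23, W01C8.13, T14F9.14, R12E2.18 and T28B11.14. SL2 RNA genes, which are near copies of one another, lie within 200 bp of the summits at C17C3.23 and R12E2.18. The matches at these summits may thus not be separate cases. GGTTCGA, the core of the B box of genes read by RNA polymerase III, was found in 34 of 1251 ncRNA-class peaks, or 2.72%, against 1.21% of others and 1.27% of all, and 18 of those 34 had a tRNA gene within 200 bp. The A box of such genes was found in none of the 31 and in 5 of 1251, or 0.400%, against 0.122% of others and 0.133% of all. Of the remaining words, TGATAA was found in 1 of the 31, or 3.23% (0.0816 to 16.7), against 19.97% of all peaks. The shares of 16.0% in the other thresholded peaks and 10.6% by GC lie inside that interval. AGATAA was found in 2, or 6.45%, against 14.9%, 12.7% and 5.45% by GC, and TATAAA in 3, or 9.68%, against 12.8%, 23.3% and 5.96% by GC, with both GC-weighted shares inside the intervals (0.791 to 21.4 and 2.04 to 25.8). CCGGAA was found in 2, or 6.45% (0.791 to 21.4), against 3.19%, 6.83% and 10.6% by GC, all inside that interval.

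The excess of strong peaks was not shared by every class of small RNA gene. Of 1066 peaks within 200 bp of a piRNA gene and of no ncRNA gene, 1 was thresholded, or 0.0938%, and their mean GC was 29.8%. Of 129 peaks by a tRNA, snRNA, snoRNA or miRNA gene and no ncRNA gene, 2 were thresholded, or 1.55% (0.188 to 5.49), against 91 of 27554 by none of these, or 0.330%. Among ncRNA-class peaks, 5 of 96 with a tRNA, snRNA, snoRNA or miRNA gene within 200 bp were thresholded, or 5.21% (1.71 to 11.7). The share was 26 of 1142 with only ncRNA genes, or 2.28%, which lies inside that interval. The 5 include C17C3.23, R12E2.18 and F13G11.145, whose sequence occurs in part elsewhere in the genome. Without all peaks by another small RNA gene, the ratio of thresholded shares was 6.89 (4.52 to 10.05).

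Sequence that occurs elsewhere in the genome was rare at these peaks. All 32-base words of the window occurred once in the genome for 28 of the 31 thresholded ncRNA-class peaks, against 91 of the other 94, and for 92.6% of all ncRNA-class peaks against 92.5% of other peaks. The exceptions were C17C3.23, R12E2.18 and F13G11.145, where 69.8%, 87.0% and 71.01% of the words were unique. The SL2 RNA genes sls-2.2 and sls-2.4 lay within 200 bp of the summits at C17C3.23 and R12E2.18, and a tRNA gene within 200 bp of that at F13G11.145. Values at these 3 are uncertain, since reads of near copies may be split or shared between them. With windows under 90% unique words left out, the ratio of thresholded shares was 7.14 (4.76 to 10.3).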

How the data were processed

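Binding was measured by ChIP-seq in 2 biological replicates of 1 group. The authors deposited narrowPeak lists in ce11, each called against a control, per the accompanying text: 1 per replicate, 1 on the pooled reads and the thresholded list derived from them. Signal is the authors' value per peak, of unstated scale. The deposited score of the ninth column is of unknown scale, below 0 for 20593 pooled peaks. The labels name the thresholded list as optimal IDR thresholded peaks and the pooled list as peaks and background used as input for IDR. The aligner, the peak caller and the value of the IDR threshold: not given in the sources used here. The ce10 lists were not used.

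Each summit was set against Ensembl release 115 genes and RefSeq sequence of WBcel235, whose coordinates are those of ce11, 1-based. Peaks were ranked by signal. Shares were compared as ratios, also after direct weighting of other peaks to the GC strata (5 points, 200 bp windows) or the GC and feature strata of the ncRNA-class peaks. Only the mean GC-weighted ratio was checked on simulated data, which held a larger share of strong peaks than the thresholded list takes. Neither the intervals nor the GC and feature strata were checked in that way. Intervals of ratios carry the counting error of the ncRNA-class share only. That of the median percentile comes from order statistics. Python 3.11.15, NumPy 2.4.6, pandas 2.3.3, SciPy 1.17.1 and matplotlib 3.10.9 were used. The members and lists were chosen with earlier results of these data known. Peaks named are all thresholded members (the 12 strongest in full), the 3 next below, the 2 largest and 2 smallest replicate ratios, the 3 hosts with most members and 3 thresholded peaks on either side of the 200 bp limit. The nuclear receptor word and the uniqueness exceptions were named after their values were seen. Alternatives covered the window, overlapping peaks, coding starts and exons, chromosome X, the score, GC strata, replicates and rank limits. Leaving out other small RNA genes and repeated sequence was chosen after seeing the data.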

Additional observations from a re-analysis of the deposited data

How the results depend on the processing

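Of the 91 values recomputed, 62 stayed within the interval or margin of the value reported, 28 moved outside it and 1 reversed. With the score as rank, the median percentile of ncRNA-class peaks was 53.8 in place of 43.2, and over all pooled peaks score and signal ran opposite to each other (Spearman's rho -0.92 across 30000 peaks, described without a test). To the depth of the thresholded list the ratio by score was 7.58, and 3.38 weighted by GC. The ratios for the 1000 highest scores were 1.78, and 1.55 weighted by GC. With summits inside a gene only, 399 peaks were left, with ratios of 14.1 (thresholded), 3.905 (1000 strongest) and 2.69 (1000 strongest, GC-weighted) and a median percentile of 37.9. Within 500 bp there were 2376 peaks, with ratios of 4.89 and 1.99. GC and feature weighting gave 1.89 and 1.66, and GC weighting without coding exons 2.08 and 1.76. The replicate 2 ratio for the 1000 strongest was 1.38 (0.983 to 1.88) with no coding start within 1 kb. The 500 strongest gave 4.12, 2.90 by GC, 3.12 in replicate 1 and 2.315 in replicate 2, and the 5000 strongest 1.31, 1.27, 1.37 and 1.28. Leaving out each replicate gave 4.55 to 7.33 for the thresholded ratio (2.955 to 3.46 by GC), 1.78 to 2.28 for the 1000 strongest (1.58 to 1.845 by GC) and median percentiles of 43.7 to 45.0. The share of thresholded ncRNA-class peaks within both replicates' top ranks to the depth of that list was 41.9% and within the strongest 5000 83.9%. The causes were not tested. With 31 thresholded ncRNA-class peaks, counting error limits every share within them, and the lists give no read depth. No paired analysis was possible because there is 1 group.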
